A study of Homo sapiens with 8 samples.

Results

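The 10 genes described here make up the control circuit of the transcription factor NRF2. They were chosen by name: *NFE2L2*, which encodes NRF2; *KEAP1*, *CUL3* and *RBX1*, the subunits of its cytoplasmic ubiquitin ligase; *BTRC*, the F-box protein of a further ligase that recognises NRF2; *BACH1*, a repressor of NRF2 target genes; *MAFF*, *MAFG* and *MAFK*, the small MAF proteins; and *NFE2L1*, which encodes the related factor NRF1. Each symbol matched 1 of the 57815 gene identifiers in the data, and all 10 genes passed the minimum mean level of 1 FPKM (FPKM counts sequenced fragments per length of transcript and per depth of library) in both cell lines. Their mRNA levels were measured by RNA-seq in ABC1 and HCC4006 cells, established lines of human lung adenocarcinoma in which the labels report neither *KEAP1* nor *NRF2* mutations and which the study calls NRF2-normal. The cells were treated for 16 h with 100 μM diethyl maleate (DEM), an electrophile that inhibits KEAP1, or with the vehicle dimethyl sulfoxide. The 4 groups were thus vehicle and DEM in each line, with 2 libraries per group, numbered 0 and 1, and 8 libraries in all. All groups shared the same low-glucose medium with fetal bovine serum and the same kit for polyA-selected, strand-specific libraries. Each line is a single culture lineage, so a difference between the lines cannot be told apart from any other feature that separates them.

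NRF2 is made continuously, and in unstressed cells KEAP1 holds it at a CUL3-RBX1 ubiquitin ligase that marks it for the proteasome. Electrophiles modify cysteines of KEAP1, NRF2 then escapes degradation, enters the nucleus, pairs with a small MAF protein and binds antioxidant response elements, where BACH1 with a small MAF can occupy the same sites as a repressor. Because this first step acts on the NRF2 protein, the mRNA values below do not measure NRF2 activity. The levels of 3 well-known NRF2 targets were used as a check of the treatment. *HMOX1*, which encodes heme oxygenase 1, had 17.3 and 20.1 FPKM in the vehicle libraries of ABC1 against 182 and 174 with DEM, and 5.59 and 5.89 against 57.4 and 55.4 in HCC4006. *NQO1*, a quinone reductase, and *GCLM*, the modifier subunit of glutamate-cysteine ligase, were also higher in both DEM libraries than in both vehicle libraries of each line.

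The largest sum of FPKM values over a library was 1.18 times the smallest. In ABC1, the sums were 628775 with vehicle and 627085 with DEM in the libraries numbered 0. They were 697394 and 737534 in those numbered 1. Each library had 12515 to 13573 genes at 1 FPKM or more. Libraries of a group correlated across genes with a Pearson's r of 0.992 to 0.995. Epithelial markers were abundant in both lines, and the sum over 6 of 6 genes was 4974 and 5825 FPKM with vehicle and 3666 and 4085 FPKM with DEM in ABC1, and 4578 and 4393 against 3443 and 3487 FPKM in HCC4006. The keratins *KRT7*, *KRT8*, *KRT18* and *KRT19* were lower in both DEM libraries than in both vehicle libraries of each line. *EPCAM* overlapped in both lines, and *CDH1* overlapped in ABC1 and was lower in both DEM libraries of HCC4006. The part of the lower keratin levels in the results for the 10 genes was not tested. Of 3 markers of lung adenocarcinoma lineage, *NKX2-1* was at 42.4 to 47.1 FPKM in HCC4006 and at 0.502 to 0.763 FPKM in ABC1, and *NAPSA* at 12.9 to 16.0 against 0.234 to 0.646 FPKM. *SFTPB* was near 0 in both lines, listed at 0 in ABC1 and at no more than 0.277 FPKM in HCC4006. Endothelial markers summed to at most 0.236 FPKM over 2 of 3 genes, since *PECAM1* was not matched. Fibroblast markers summed to 3.69 to 6.30 FPKM in ABC1 and to 6.21 to 7.64 FPKM in HCC4006. Most of this was *COL1A1*, at 3.58 to 5.96 FPKM in ABC1 and 6.17 to 7.64 FPKM in HCC4006. *PTPRC* and *CD3E*, which mark leukocytes, stayed at or under 0.192 FPKM. *CD68* was listed at 89.3 to 102 FPKM in HCC4006, although the authors' base mean for it there, a mean of scaled read counts, was 5.56.

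Sequence near the transcription starts is shown first, for the members whose windows held letters of an antioxidant response element or of related sites. RefSeq promoter windows on GRCh38.p14, from 250 bases before to 50 bases after a start, were found for 8 of the 10 members, in 15 windows. *BTRC* and *MAFK* had none. The core of the antioxidant response element was searched as TGACNNNGC on both strands and occurred in 13.3% of all 35116 windows and in 3 of the 15 member windows, those of *KEAP1*, *MAFF* and *RBX1*. The longer form TGACNNNGCA, which contains the core, occurred in 3.18% of all windows and in 1 member window, that of *KEAP1*. Capitals mark the match, each run reads 5′ to 3′ on the strand of the match, and the window of *GCLM*, an NRF2 target, is printed beside the members for comparison.

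KEAP1, 31 bases before the start, chr19:10502794-10502802: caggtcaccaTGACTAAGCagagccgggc
GCLM, 34 bases before the start, chr1:93909456-93909464: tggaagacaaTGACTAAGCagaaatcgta
KEAP1, 54 bases before the start, chr19:10502817-10502825: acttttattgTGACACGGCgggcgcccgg
MAFF, 122 bases before the start, chr22:38201872-38201880: cgcccccgtaTGACCCCGCcccctggaag
RBX1, 124 bases before the start, chr22:40951254-40951262: gcggagcacgTGACCACGCctcttaaagg

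The first 2 of these runs shared 13 consecutive bases, atgactaagcaga, whereas the other 3 shared between 4 and 6 bases with the run of *GCLM*. The search itself fixed TGAC and GC in each run, and how often other windows share as many bases with *GCLM* was not tested. The 29-base runs of *KEAP1* matched GRCh37 once each, at chr19:10613460-10613488 and chr19:10613483-10613511, inside an exon that GENCODE annotates as untranslated. The run of *MAFF* fell in an annotated exon and that of *RBX1* upstream of the gene. The AP-1 type site TGAGTCA, present in 4.95% of all windows, was found in 1 of the 15 member windows. It lay in 1 of the 3 windows of *BACH1*, 48 bases before the start, and in an annotated intron of the gene on GRCh37. The cyclic AMP response type site TGACGTCA, present in 1.85% of all windows, was found in 1 member window, that of *MAFF* 54 bases before the start. They are shown because *BACH1* and *MAFF* are described below.

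BACH1, chr21:29298874-29298880: gcggaaggagTGAGTCAcctgaccgct
MAFF, chr22:38201940-38201947: gccgggtcggTGACGTCAccgcatgact

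These matches are letters in a window and do not show binding.

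Within a line, the DEM and vehicle libraries were compared by limma on log2(FPKM + 1), and a gene was called at a Benjamini-Hochberg (BH) adjusted p under 0.05 over all genes tested. For low levels, this scale gives a smaller change than the ratio of FPKM values. In ABC1, 1 of the 10 genes was called higher with DEM, *KEAP1*, and 0 were called lower, against 0.768% and 0.435% of the 12635 genes tested. In HCC4006, 6 of the 10 were called higher, *KEAP1*, *NFE2L2*, *BACH1*, *MAFF*, *MAFG* and *MAFK*, and 0 lower, against 8.45% and 10.7% of the 13542 genes tested. At an unadjusted p under 0.05 were 7 of the 10 in ABC1 and 8 of the 10 in HCC4006, beside 2771 and 4985 of all genes tested. The median log2 fold change of the 10 genes was 0.38 in ABC1 and 0.45 in HCC4006, and that of all genes tested was -0.02 and -0.03. Both DEM libraries lay above both vehicle libraries for 7 of the 10 genes in ABC1, where 25.5% of all genes did so, and for 7 of the 10 in HCC4006, where 29.3% did so. Both lay below for 0 genes in ABC1 and for 1 gene, *RBX1*, in HCC4006, where this held for 28.2% and 35.3% of all genes. The smallest two-sided p that exact permutation of 2 and 2 libraries allows is 0.333, so all p-values come from the model across genes. In a fit of all 8 libraries, which share 1 estimate of the spread, *NFE2L2*, *CUL3*, *MAFG* and *MAFF* were also called higher in ABC1. *NFE2L2* and *MAFF* lost their calls in HCC4006 in that fit. With the replicate number as a block in the fit of each line, the same additional genes were called higher in ABC1. Without the minimum level, *KEAP1* was not called in ABC1 (adjusted p = 0.110 by limma), and in HCC4006 the adjusted p was 0.0824 for *KEAP1*, 0.108 for *NFE2L2*, 0.181 for *BACH1*, 0.138 for *MAFF* and 0.0685 for *MAFK*.

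**Figure D1:**
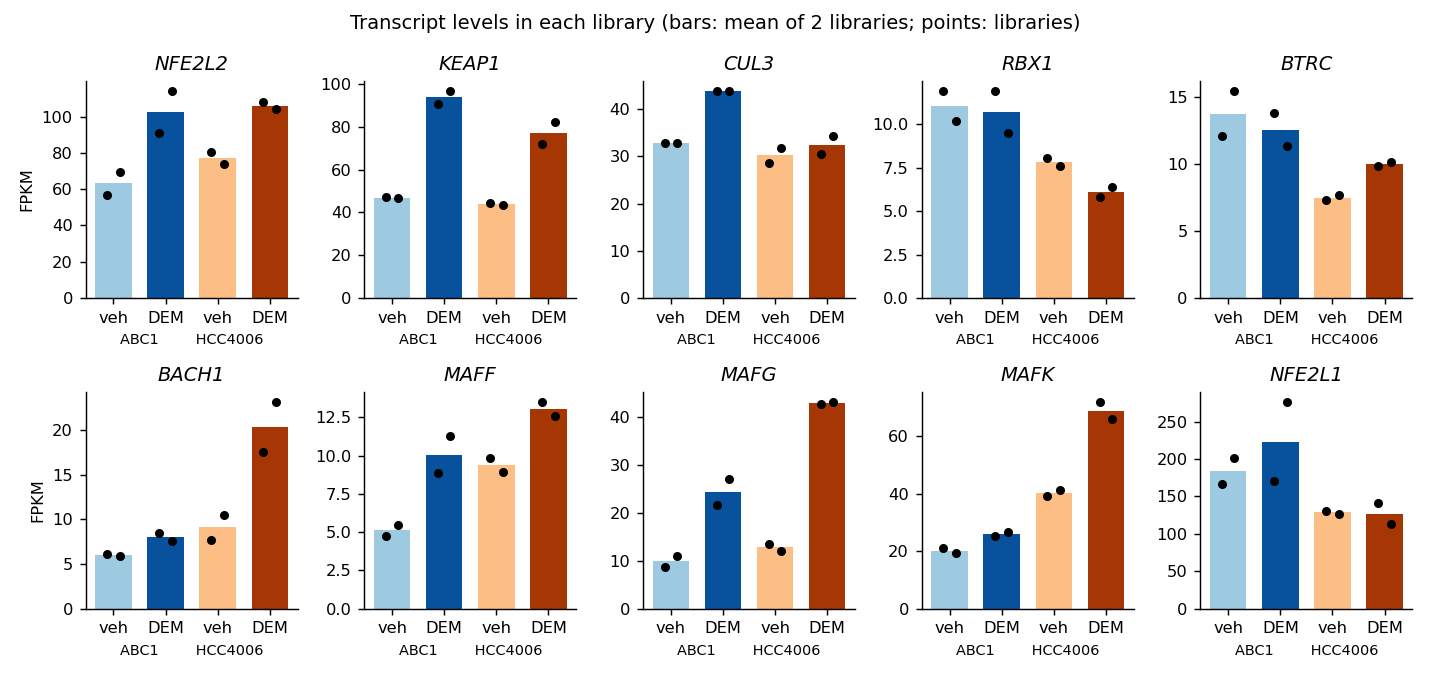
FPKM of each of the 10 genes in the 4 groups, with bars for the mean of 2 libraries, points for the libraries, a linear axis from 0 and a separate scale for each gene. For *KEAP1*, *MAFG*, *MAFF*, *MAFK*, *NFE2L2* and *BACH1* the DEM points lay above the vehicle points in both lines.

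*NFE2L2* (ENSG00000116044.11), which GENCODE places on GRCh37 chromosome 2, 178083395 to 178257484, minus strand, encodes the activator itself. In ABC1, its level was 57.0 and 69.5 FPKM with vehicle and 90.9 and 114 FPKM with DEM, that is, 63.3 ± 8.85 against 102 ± 16.0 FPKM (SD, n = 2 each). The DEM libraries were both above the vehicle libraries, 1.62-fold on average. The log2 fold change of 0.68 (SE, that is, standard error, 0.17) was not called in the main fit of this line (limma, BH-adjusted p = 0.107). It was called in the fit of all 8 libraries (adjusted p = 0.0257) and with a replicate block (0.00401 by limma). In HCC4006, *NFE2L2* rose from 80.8 and 73.8 FPKM to 108 and 104 FPKM, again with no overlap. The mean rose 1.37-fold, from 77.3 ± 4.97 to 106 ± 2.78 FPKM (SD, n = 2 each). This was a log2 fold change of 0.45 (SE 0.08, limma, BH-adjusted p = 0.0147). In libraries of whole cultures, a change in the RNA of every cell and a change in the share of cells that carry it cannot be told apart. The call in HCC4006 was kept without vehicle replicate 0 (adjusted p = 0.0444) and lost without vehicle replicate 1, DEM replicate 0 or DEM replicate 1 (adjusted p = 0.0900, 0.0687 and 0.0536 in this order by limma). It was also lost in the fit of all 8 libraries (adjusted p = 0.0829). Exons of *HNRNPA3* and *AGPS* on the opposite strand overlap annotated exons of *NFE2L2*, and neither was called higher with DEM in either line. *AGPS* had 53.1 and 54.1 FPKM with vehicle and 58.4 and 58.3 FPKM with DEM in HCC4006 (adjusted p = 0.256 by limma). In ABC1 it had 13.5 and 20.1 against 11.1 and 11.7 FPKM. *HNRNPA3* fell in HCC4006 by 0.36 on the log2 scale (limma, BH-adjusted p = 0.0219). The part of these genes in the values of *NFE2L2* was not tested.

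*KEAP1* (ENSG00000079999.9), on the minus strand of chromosome 19 from 10596801 to 10614234, encodes the adaptor that senses electrophiles and presents NRF2 to the ligase. It was the only one of the 10 genes called in both lines. In ABC1, *KEAP1* had 47.0 and 46.9 FPKM with vehicle and 90.9 and 96.6 FPKM with DEM. The vehicle libraries were practically equal and the DEM level was 2.00-fold higher, with a log2 fold change of 0.98 (SE 0.12, limma, BH-adjusted p = 0.0365). In HCC4006, the levels were 44.3 and 43.7 FPKM with vehicle and 72.1 and 82.5 FPKM with DEM. *KEAP1* thus rose 1.76-fold there, with a log2 fold change of 0.80 (SE 0.09, limma, BH-adjusted p = 0.00483). Its log2 fold change stood at percentile 98.5 of all genes tested in ABC1 and at percentile 97.6 in HCC4006. The call in ABC1 was lost with any 1 library left out, with an adjusted p by limma of 0.310 without vehicle replicate 0, 0.262 without vehicle replicate 1, 0.0743 without DEM replicate 0 and 0.0917 without DEM replicate 1, while its log2 fold change stayed between 0.94 and 1.02. It was also lost without the mean-variance trend (adjusted p = 0.0697). In HCC4006 the call was kept with each library left out, at an adjusted p of at most 0.0310 by limma.

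The other parts of the KEAP1 ligase did not pass the test in the main fit of either line. *CUL3* (ENSG00000036257.8), the cullin scaffold, lies on the minus strand of chromosome 2 from 225334867 to 225450114. In ABC1 it had 32.8 FPKM in both vehicle libraries and 43.8 FPKM in both DEM libraries, a log2 fold change of 0.41 (SE 0.12, 95% confidence interval 0.12 to 0.69, limma, BH-adjusted p = 0.132). The replicates of *CUL3* were almost identical in that line, and the groups did not overlap. The difference was called in the fit of all 8 libraries (limma, adjusted p = 0.0434) and with a replicate block (0.0232). In HCC4006, *CUL3* had 28.6 and 31.9 FPKM with vehicle and 30.6 and 34.4 FPKM with DEM, so the groups overlapped, and the log2 fold change was 0.10 (95% confidence interval -0.14 to 0.34, adjusted p = 0.511 by limma). *RBX1* (ENSG00000100387.8), the RING subunit that recruits the ubiquitin-conjugating enzyme, lies on the plus strand of chromosome 22 from 41347351 to 41369313. It had 11.9 and 10.2 FPKM with vehicle and 11.9 and 9.49 FPKM with DEM in ABC1. In HCC4006, *RBX1* had 8.06 and 7.62 FPKM with vehicle and 5.83 and 6.38 FPKM with DEM, the only member whose DEM libraries both lay below the vehicle libraries. Its log2 fold change there was -0.32 (SE 0.11, 95% confidence interval -0.60 to -0.04, limma, BH-adjusted p = 0.104). Of the 10 genes, *RBX1* had the smallest base mean in the authors' tables for both lines, 55.6 (ABC1) and 35.8 (HCC4006), against 1493 and 1353 for *KEAP1*.

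*BTRC* (ENSG00000166167.13), on the plus strand of chromosome 10 from 103113790 to 103317078, encodes the receptor of an SCF ligase that recognises NRF2 after its phosphorylation by GSK3. In ABC1, *BTRC* had 12.1 and 15.4 FPKM with vehicle and 13.8 and 11.3 FPKM with DEM, and the groups overlapped. In HCC4006, it had 7.27 and 7.67 FPKM with vehicle and 9.81 and 10.1 FPKM with DEM, a ratio of 1.33 between groups that did not overlap. The log2 fold change was -0.12 in ABC1 (95% confidence interval -0.55 to 0.31, adjusted p = 0.716) and 0.37 in HCC4006 (95% confidence interval 0.12 to 0.63, adjusted p = 0.0559), neither of which passed the threshold by limma. With median-of-ratios scaling, *BTRC* was called in HCC4006 (adjusted p = 0.0487). The estimate in ABC1 was above 0 without vehicle replicate 1 (0.04) or without DEM replicate 1 (0.01).

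*BACH1* (ENSG00000156273.11), on the plus strand of chromosome 21 from 30566392 to 31003071, encodes the repressor that competes with NRF2 for small MAF partners and sites. In HCC4006, *BACH1* had 7.73 and 10.5 FPKM with vehicle and 17.5 and 23.1 FPKM with DEM. It rose 2.23-fold, from 9.09 ± 1.93 to 20.3 ± 4.01 FPKM (SD, n = 2 each). Its log2 fold change was 1.08 (SE 0.18, limma, BH-adjusted p = 0.0152), at percentile 99.0 of all genes tested. In ABC1, the vehicle libraries held 6.16 and 5.90 FPKM and the DEM libraries 8.49 and 7.54 FPKM. The groups did not overlap there either, with a ratio of 1.33, but the log2 fold change of 0.36 did not pass the test (SE 0.14, limma, BH-adjusted p = 0.225). Without HCC4006 vehicle replicate 0 or DEM replicate 1, the call in HCC4006 was lost (adjusted p = 0.0509 and 0.0676 by limma), at a log2 fold change of 0.88 in both cases.

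The small MAF proteins have no activation domain of their own, and serve as DNA-binding partners of NRF2, NRF1 and BACH1. *MAFG* (ENSG00000197063.6), on the minus strand of chromosome 17 from 79876146 to 79885611, showed the largest log2 fold change of the 10 genes in both lines. In ABC1, it had 8.66 and 11.1 FPKM with vehicle and 21.6 and 27.1 FPKM with DEM, a 2.46-fold higher mean. The log2 fold change of 1.22 (SE 0.18, limma, BH-adjusted p = 0.0502) fell just short of the threshold. It was called with a pseudocount of 0.1 (adjusted p = 0.0453), with scaling by the median of ratios (0.0374), in the fit of all 8 libraries (0.00603) and with a replicate block (0.00214). It was not called without the minimum level (adjusted p = 0.220), without the trend (0.0743) or with any 1 library left out (0.0629 to 0.317), all by limma. In HCC4006, *MAFG* rose 3.35-fold, from 13.6 and 12.0 FPKM to 42.8 and 43.2 FPKM. Its log2 fold change there was 1.67 (SE 0.09, limma, BH-adjusted p = 7.92e-04), at percentile 99.7 of all genes tested, and was called with each library left out. Exons of *SIRT7*, a deacetylase gene on the same strand, overlap those of *MAFG*, so reads of the shared stretch could have been assigned to either. *SIRT7* had 18.8 and 22.1 FPKM with vehicle and 26.7 and 31.1 FPKM with DEM in ABC1, and 39.4 and 35.0 against 44.4 and 42.8 FPKM in HCC4006. Its log2 fold changes, 0.48 in ABC1 and 0.23 in HCC4006, were not called (adjusted p = 0.148 and 0.123 by limma), and their part in the values of *MAFG* was not tested.

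*MAFF* (ENSG00000185022.7), on the plus strand of chromosome 22 from 38596774 to 38612514, had 4.78 and 5.47 FPKM with vehicle and 8.84 and 11.3 FPKM with DEM in ABC1. The groups did not overlap and the mean was 1.97-fold higher, but the log2 fold change of 0.85 (SE 0.17) missed the threshold (limma, BH-adjusted p = 0.0780). It passed in the fit of all 8 libraries (adjusted p = 0.0133) and with a replicate block (0.0117 by limma). In HCC4006, *MAFF* rose from 9.82 and 8.90 FPKM to 13.5 and 12.6 FPKM, a 1.40-fold change with a log2 fold change of 0.44 (SE 0.11, limma, BH-adjusted p = 0.0378). This call was lost with any 1 library of the line left out: the adjusted p by limma was 0.0981 without vehicle replicate 0, 0.174 without vehicle replicate 1, 0.144 without DEM replicate 0 and 0.0920 without DEM replicate 1. It was also lost without the trend (adjusted p = 0.0525) and in the fit of all 8 libraries (0.0862). *PLA2G6*, a phospholipase gene on the opposite strand with exons that overlap those of *MAFF*, was also higher in both DEM libraries than in both vehicle libraries of each line. *PLA2G6* had 3.50 and 1.72 FPKM with vehicle and 5.90 and 7.20 FPKM with DEM in ABC1, and 11.3 and 8.13 against 14.8 and 12.3 FPKM in HCC4006, differences that were not called (adjusted p = 0.106 and 0.118 by limma). Whether the counting used the strand is not given in the sources used here, and the part of *PLA2G6* in the values of *MAFF* was not tested.

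*MAFK* (ENSG00000198517.5), on the plus strand of chromosome 7 from 1570338 to 1582679, was the most abundant small MAF transcript in 7 of the 8 libraries. With vehicle in ABC1 it had 21.1 and 19.3 FPKM, and with DEM 25.3 and 26.5 FPKM, a log2 fold change of 0.34 (SE 0.12, limma, BH-adjusted p = 0.191). In HCC4006, *MAFK* rose 1.71-fold, from 39.2 and 41.3 FPKM to 71.8 and 65.9 FPKM. The log2 fold change there was 0.76 (SE 0.08, limma, BH-adjusted p = 0.00438) and was called with each library left out. Exons of *TMEM184A* on the opposite strand overlap those of *MAFK*. *TMEM184A* had 29.6 and 26.9 FPKM with vehicle and 41.2 and 34.6 FPKM with DEM in HCC4006 (adjusted p = 0.0509 by limma), and its part in the values of *MAFK* was not tested.

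*NFE2L1* (ENSG00000082641.11), on the plus strand of chromosome 17 from 46125691 to 46138907, encodes NRF1, a factor of the endoplasmic reticulum that is processed into an activator of proteasome genes and also pairs with small MAF proteins. It had the highest level of the 10 genes in every group. In ABC1, *NFE2L1* had 166 and 201 FPKM with vehicle and 170 and 276 FPKM with DEM, and in HCC4006 130 and 127 against 141 and 113 FPKM. The groups overlapped in both lines. By limma, the log2 fold change was 0.24 in ABC1 (95% interval -0.38 to 0.86, BH-adjusted p = 0.613) and -0.03 in HCC4006 (95% interval -0.30 to 0.24, BH-adjusted p = 0.886). The direction in ABC1 rested on DEM replicate 1, without which the estimate was -0.11, and in HCC4006 it turned without DEM replicate 1 (0.13) and with scaling by the median of ratios (0.0053).

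**Figure D2:**
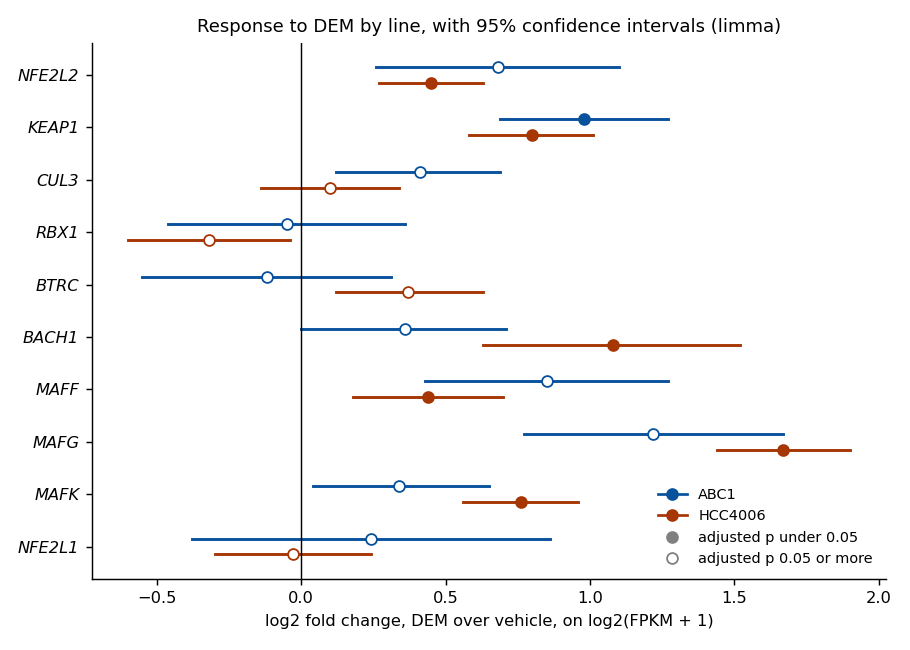
Log2 fold changes of DEM over vehicle for the 10 genes in ABC1 (blue) and HCC4006 (brown), on log2(FPKM + 1), with 95% confidence intervals from limma; filled points passed an adjusted p of 0.05. *MAFG* lay farthest to the right in both lines, at 1.22 and 1.67, and the intervals of *RBX1*, *BTRC* and *NFE2L1* in ABC1 and of *CUL3* and *NFE2L1* in HCC4006 included 0.

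The lines were then compared in their response to DEM, as the log2 fold change in HCC4006 minus that in ABC1 in a fit of all 8 libraries. None of the 10 genes was called (limma, BH adjustment), against 0.636% of the 13682 genes tested, and 3 of the 10 had an unadjusted p under 0.05, beside 2068 of all genes. The gene with the largest difference was *BACH1*, at 0.72 (SE 0.25, 95% confidence interval 0.14 to 1.30, adjusted p = 0.237 by limma). It was 0.50 for *BTRC* (95% confidence interval 0.02 to 0.97, adjusted p = 0.311) and 0.41 for *MAFK* (95% confidence interval 0.10 to 0.73, adjusted p = 0.219), the other two genes whose interval lay above 0. The difference was 0.45 for *MAFG* (95% confidence interval -0.05 to 0.96) and -0.41 for *MAFF* (95% confidence interval -0.87 to 0.05). For *KEAP1* it was -0.19 (95% confidence interval -0.50 to 0.13) and for *NFE2L2* -0.23 (95% confidence interval -0.69 to 0.23), so these intervals still held differences of either sign. A call in HCC4006 beside no call in ABC1 was therefore not shown to be a difference between the lines for any of the 10 genes.

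**Figure D3:**
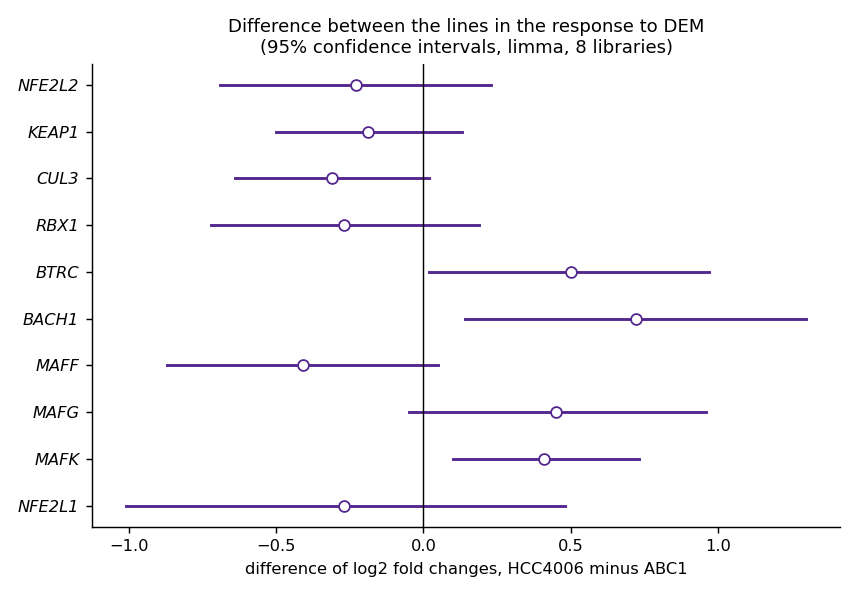
Difference of the log2 fold changes (HCC4006 minus ABC1) for the 10 genes, with 95% confidence intervals from limma over 8 libraries; open points did not pass an adjusted p of 0.05. The intervals of *BACH1*, *BTRC* and *MAFK* lay above 0 and the other 7 included 0.

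With vehicle alone, 5 of the 10 genes were called different between the lines, beside 9159 of the 13682 genes tested. *BACH1*, *MAFF* and *MAFK* were called higher in HCC4006, against 36.8% of the 13682 genes tested, and *RBX1* and *BTRC* lower, against 30.2%. The largest of these differences was that of *MAFK*, with a mean of 40.2 ± 1.51 FPKM in HCC4006 and 20.2 ± 1.31 FPKM in ABC1 (SD, n = 2 each). This was a log2 difference of 0.96 (SE 0.10, limma, BH-adjusted p = 7.05e-05), at percentile 78.4 of all genes tested. *MAFF* was 1.83-fold higher in HCC4006 (log2 difference 0.76, adjusted p = 0.00189) and *BACH1* 1.51-fold higher (log2 difference 0.51, adjusted p = 0.0341 by limma). *BTRC* was lower in HCC4006 by 0.79 on the log2 scale, at 7.47 ± 0.284 against 13.8 ± 2.34 FPKM (SD, n = 2 each; log2 difference -0.79, adjusted p = 0.00174 by limma). *RBX1* had a log2 difference of -0.45 (adjusted p = 0.0220 by limma). *NFE2L2*, *MAFG*, *NFE2L1*, *KEAP1* and *CUL3* were not called, with log2 differences of 0.29, 0.35, -0.50, -0.09 and -0.11 in this order. The 95% confidence interval of *KEAP1* was -0.31 to 0.13. The call of *BACH1* was lost without ABC1 vehicle replicate 0 (adjusted p = 0.0877), ABC1 vehicle replicate 1 (0.115) or HCC4006 vehicle replicate 1 (0.213), and that of *RBX1* without ABC1 vehicle replicate 0 (0.119), HCC4006 vehicle replicate 0 (0.0669) or HCC4006 vehicle replicate 1 (0.104), all by limma. With median-of-ratios scaling, *BACH1* was not called (adjusted p = 0.0535) and *NFE2L1* was called lower (0.0441), and without the minimum level *BACH1* and *RBX1* were not called (0.111 and 0.0567). *NFE2L1* was also called lower without ABC1 DEM replicate 0 (0.0144) or 1 (0.0151), and *MAFG* higher without ABC1 vehicle replicate 1 (0.0336).

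FPKM values are scaled by transcript length, so the genes could be put in order within a group. *NFE2L1*, *NFE2L2* and *KEAP1* took the first, the second and the third place in all 4 groups. *NFE2L1* had a mean of 184 FPKM with vehicle in ABC1, at percentile 96.0 of genes at 1 FPKM or more, and *NFE2L2* stood at percentile 86.5 with 63.3 FPKM. At the other end were *BACH1* with 6.03 and *MAFF* with 5.13 FPKM, at percentiles 30.9 and 27.3. With DEM in ABC1, *NFE2L2* and *KEAP1* overlapped (90.9 and 114 against 90.9 and 96.6 FPKM), as did *MAFK* and *MAFG*, while these pairs were separate with vehicle. In the vehicle libraries of HCC4006, neighbours in the order *MAFF*, *BACH1*, *RBX1* and *BTRC* overlapped, with means between 7.47 and 9.36 FPKM, while *MAFF* lay above *RBX1* and *BTRC*, and *BACH1* above *BTRC*, in both libraries. With DEM there, *MAFG* stood at percentile 79.7, against 50.8 with vehicle, and *RBX1* was last, at percentile 32.7 with 6.10 FPKM.

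Sums and ratios of members were computed within each library, as descriptions of FPKM values on the linear scale. The small MAF transcripts together had 34.6 and 35.9 FPKM in the vehicle libraries of ABC1 and 55.7 and 65.0 FPKM in the DEM libraries. In HCC4006, the sum was 62.6 and 62.2 FPKM with vehicle and 128 and 122 FPKM with DEM, so that the DEM libraries of ABC1 spanned the vehicle level of HCC4006. *MAFG* made up 25.1% and 31.1% of the sum with vehicle in ABC1 and 38.7% and 41.8% with DEM, and 21.8% and 19.3% against 33.4% and 35.5% in HCC4006. The share of *MAFK* was lower with DEM, at 45.4% and 40.8% against 61.1% and 53.7% in ABC1 and at 56.0% and 54.2% against 62.5% and 66.4% in HCC4006. The share of *MAFF* was higher with DEM in ABC1 (15.9% and 17.5%, against 13.8% and 15.3%) and lower with DEM in HCC4006 (10.6% and 10.4%, against 15.7% and 14.3%). Within each line, the vehicle and DEM libraries did not overlap in any of these shares.

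The level of *KEAP1* relative to *NFE2L2* was 0.825 and 0.674 with vehicle and 1.0 and 0.850 with DEM in ABC1, and 0.548 and 0.593 against 0.669 and 0.794 in HCC4006. *KEAP1* thus stood higher against *NFE2L2* in the DEM libraries of both lines. The ratio of *BACH1* to *NFE2L2* was 0.108 and 0.0849 with vehicle and 0.0934 and 0.0664 with DEM in ABC1, where the groups overlapped. In HCC4006, it was 0.0957 and 0.142 with vehicle and 0.162 and 0.223 with DEM, without overlap. The small MAF sum was 0.606 and 0.516 times *NFE2L2* with vehicle and 0.612 and 0.572 times with DEM in ABC1, again with overlap, and 0.775 and 0.843 against 1.19 and 1.17 times in HCC4006. *NFE2L1* was 2.92 and 2.89 times *NFE2L2* with vehicle in ABC1 and 1.87 and 2.43 times with DEM, and 1.61 and 1.72 against 1.31 and 1.09 times in HCC4006, lower in the DEM libraries of both lines.

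**Figure D4:**
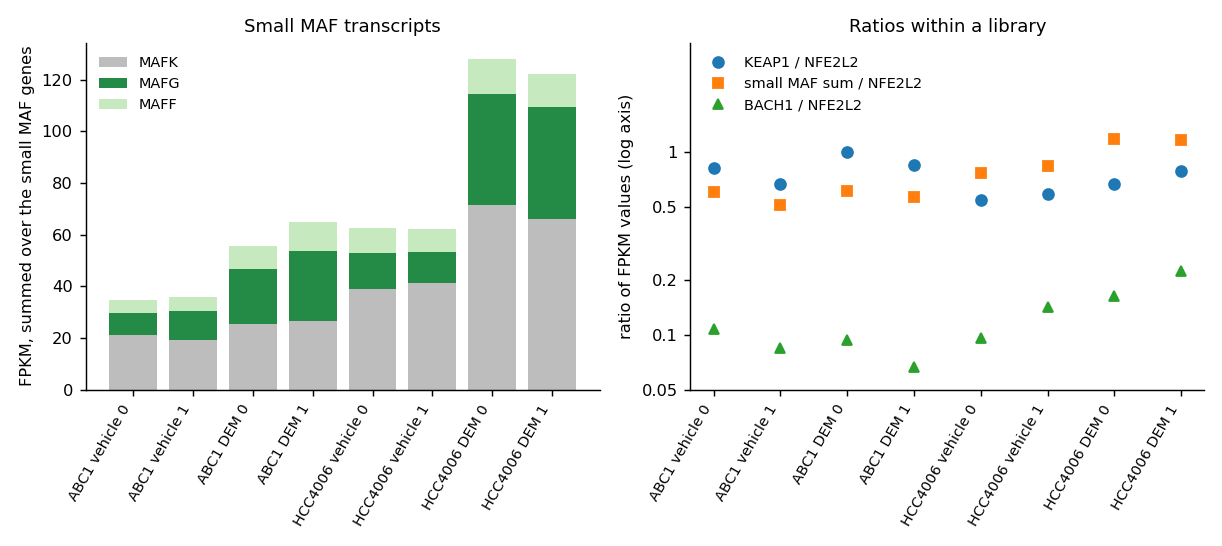
Left, summed FPKM of *MAFK*, *MAFG* and *MAFF* stacked for each of the 8 libraries; right, ratios of FPKM values within each library on a log axis. The sum reached 122 and 128 FPKM with DEM in HCC4006 and at most 65.0 FPKM in the other libraries, and the ratio of *BACH1* to *NFE2L2* was highest, at 0.162 and 0.223, in the same libraries.

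For *NFE2L2*, *MAFG* and *MAFF*, the genes with the most similar profile were ranked by Pearson's r of log2(FPKM + 1) over the 8 libraries among 13391 genes, as a description only, since all points share the same lines and treatment. The profile nearest to *NFE2L2* was that of *AXIN1*, a scaffold of WNT signalling, with an r of 0.988, before *HK1*, a hexokinase, with 0.986 and *CNPPD1* with 0.980. *MAFG* was nearest to *MAP2K4*, a stress-activated kinase kinase, with an r of 0.987, before *TMEM140* with 0.986 and *RTN4* with 0.984. *MAFF* was nearest to *NFKB2*, an NF-κB subunit, with an r of 0.992, before the identifier ENSG00000261602 with 0.990 and *ELF4* with 0.984. Mean levels of *NFKB2* were 21.3 and 35.6 FPKM in ABC1 with vehicle and DEM, and 32.4 and 41.6 FPKM in HCC4006.

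Around the 10 genes, 37 further genes of the pathway were read in 7 lists, of which 33 were tested in ABC1 and 32 in HCC4006. In ABC1, 2 of 33 were called higher and 0 lower, against 0.768% and 0.435% of all genes tested. In HCC4006, 3 of 32 were called higher and 0 lower, against 8.45% and 10.7% of all genes tested. The median log2 fold change over the tested genes was 0.08 in ABC1 and 0.09 in HCC4006. Among 6 genes whose proteins compete for binding to KEAP1 or NRF2, *SQSTM1* was called in both lines. *SQSTM1* encodes p62, an autophagy receptor that sequesters KEAP1. It had 183 and 199 FPKM with vehicle and 644 and 609 FPKM with DEM in ABC1, and 965 and 924 against 2242 and 2273 FPKM in HCC4006. The libraries with vehicle in HCC4006 were thus above the DEM libraries of ABC1. Its log2 fold change was 1.71 in ABC1 (SE 0.13, adjusted p = 0.0158) and 1.26 in HCC4006 (SE 0.06, limma, BH-adjusted p = 5.24e-04). Without the minimum level, neither call of *SQSTM1* held, with an adjusted p of 0.0503 in HCC4006 by limma. *CDKN1A*, which encodes the cell cycle inhibitor p21, had 13.1 and 15.9 FPKM with vehicle and 34.8 FPKM in both DEM libraries of ABC1, a log2 fold change of 1.22 (adjusted p = 0.0365 by limma). The call of *SQSTM1* in ABC1 was lost without vehicle replicate 0 or 1 (adjusted p = 0.207 and 0.142 by limma), and that of *CDKN1A* without vehicle replicate 0 or 1 (0.284 and 0.155) and without DEM replicate 0 or 1 (0.0681 and 0.0726). In HCC4006, *CDKN1A* had 76.4 and 84.2 FPKM with vehicle and 83.7 and 80.0 FPKM with DEM, a log2 fold change of 0.03 (95% confidence interval -0.16 to 0.22, adjusted p = 0.820 by limma).

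The list of genes that add NEDD8 to cullins, remove it or bind cullins showed 0 calls among 7 genes in either line, with medians of -0.02 and 0.03. The largest change there was that of *DCUN1D1*, a NEDD8 ligase, with a log2 fold change of 0.27 in HCC4006 (adjusted p = 0.0547 by limma). Of 5 genes of the arm that works with BTRC, *CUL1*, the cullin of SCF ligases, was called in HCC4006, from 12.9 and 13.2 to 17.9 and 16.6 FPKM (log2 fold change 0.38, adjusted p = 0.0415 by limma). All 5 of these genes had a log2 fold change above 0 in both lines, with medians of 0.31 in ABC1 and 0.23 in HCC4006. Counted in each line separately, 19 of 33 genes of the 7 lists together were above 0 in ABC1 and 22 of 32 in HCC4006. Among all genes tested, 6032 of 12635 and 6370 of 13542 were above 0. The genes above 0 in both lines at once were not counted for the lists together or for all genes. Among 6 genes that process or turn over NRF1, *VCP*, the ATPase that extracts proteins from the endoplasmic reticulum, was called in HCC4006, from 102 FPKM in both vehicle libraries to 134 and 135 FPKM (log2 fold change 0.39, adjusted p = 0.0123 by limma). With a library left out, neither call held: the adjusted p by limma without vehicle replicate 0 or 1 and DEM replicate 0 or 1 was 0.166, 0.149, 0.149 and 0.0853 for *CUL1* and 0.0735, 0.0798, 0.0528 and 0.0516 for *VCP*. Of the other CNC and BACH factors, *NFE2* was close to 0 in all libraries and *BACH2* had the largest change, from 1.32 and 0.883 to 2.26 and 2.00 FPKM in ABC1 (log2 fold change 0.58, adjusted p = 0.206 by limma). Most large MAF factors were under the minimum level, and 0 were called in either line. Of 6 coactivators and nuclear binding partners of NRF2, 0 were called in either line, and the largest change was that of *EP300*, a histone acetyltransferase, with a log2 fold change of 0.44 in HCC4006 (adjusted p = 0.0786 by limma), which was called without DEM replicate 1 (0.0484).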

How the data were processed

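Per the labels, RNA-seq libraries were made from 2 cultures per group with a strand-specific kit after polyA selection. According to the study's methods the authors aligned reads to hg19 with TopHat and estimated expression with Cufflinks, whereas the submitters' processing notes name bcl2fastq 2.15.0, cutadapt 1.15, STAR 2.5.3a, HTSeq, DESeq2 and Cuffnorm with GRCh37.p13. The authors deposited an FPKM value per gene and library, and for each line a table of their own comparison, with fold changes and p-values that were not used here. From these tables only the base mean was taken, a signal that the authors deposited as the mean of scaled read counts, which summed to 13786938 in ABC1 and 13957320 in HCC4006. FPKM values carry no read count per library, so no interval for counting error is given.

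Gene symbols were found for 55534 of 57815 identifiers. Values were transformed to log2(FPKM + 1), genes were kept whose mean over the fitted libraries reached 1 FPKM, and linear models with a mean-variance trend were fitted with limma 3.58.1 in R 4.3.3, within each line for DEM against vehicle and over all 8 libraries for the comparisons between lines. The threshold was a Benjamini-Hochberg adjusted p of 0.05. Replicates are biological duplicates according to the methods, and p-values measure the spread between these libraries. The fit was tested on simulated data with known changes. These were larger than the changes of the 10 genes, so the test does not show how well changes of their size are called. The alternatives were a pseudocount of 0.1, no expression minimum, no trend, median-of-ratios scaling, a replicate block, a fit of all 8 libraries for the comparisons within lines, and leaving out each library. The 10 genes and the lists were chosen with earlier results of these data known. Named beside them are the called genes of each list, otherwise the gene with the largest change, 3 reference targets, and the 3 profiles most like each of *NFE2L2*, *MAFG* and *MAFF*. Other genes are named for exons that overlap a member, if they code for protein. *GRIK1* and *GRIK1-AS2*, whose exons overlap those of *BACH1*, were close to 0 in all libraries. Exons of long non-coding RNA genes overlap those of *NFE2L2* and *BACH1* on the same strand. Others overlap those of *NFE2L2*, *CUL3*, *MAFG* and *NFE2L1* on the opposite strand. The part of these RNAs in the values was not tested. The values of 1 gene of the lists are not reported here. Gene positions come from the GENCODE annotation on GRCh37, promoter windows from RefSeq.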

Additional observations from a re-analysis of the deposited data

Results flagged for a closer look

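The response of *CDKN1A* to DEM differed between the lines, by -1.19 on the log2 scale (HCC4006 minus ABC1, SE 0.16, limma, BH-adjusted p = 0.0357 over 13682 genes). With a pseudocount of 0.1 or a replicate block the adjusted p was 0.0533 and 0.0673, and over all alternatives it ranged from 0.0246 to 0.167. With a library left out, the difference was called only without ABC1 vehicle replicate 1 (adjusted p = 0.0463 by limma), and the adjusted p lay between 0.0648 and 0.167 without any 1 of the other 7 libraries.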

How the results depend on the processing

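The 10 genes gave 460 values under an alternative, of which 402 kept their direction and their side of the threshold, 32 lost a call, 18 gained one and 8 turned sign, all 8 in values that were not called. In ABC1, the members called higher numbered 2 with a pseudocount of 0.1 or median-of-ratios scaling, 0 without the expression minimum or without the trend (7 and 6 members at an unadjusted p under 0.05), 5 with a replicate block and 5 in the fit of all 8 libraries, and 0 with any library left out (limma, 3 to 5 members at an unadjusted p under 0.05). All genes called in ABC1, 97 higher and 55 lower, numbered 0 and 0 without the minimum (3883 genes had an unadjusted p under 0.05), 27 and 6 without the trend, 158 and 93 with median-of-ratios scaling, 1185 and 1163 with the replicate block, 738 and 756 in the fit of all 8 libraries, and 10 to 51 and 8 to 18 with a library left out. In HCC4006, the members called higher numbered 1, *MAFG*, without the minimum, 5 without the trend, 4 in the fit of all 8 libraries, and 3 to 4 with a library left out. All genes called there, 1144 higher and 1447 lower, numbered 177 and 193 without the minimum, 706 and 847 in the fit of all 8 libraries, and 290 to 464 and 344 to 564 with a library left out. For the difference between the lines, 87 calls became 20 with a pseudocount of 0.1, 403 without the minimum, 13 with the replicate block and 4 to 41 with a library left out. With vehicle, members called lower in HCC4006 numbered 1 without the minimum and 1 to 3 with a library left out, and members called higher numbered 5 with the replicate block. With a library left out, the values that turned lay, in ABC1, between -0.20 and 0.10 for *RBX1*, -0.29 and 0.039 for *BTRC*, -0.11 and 0.59 for *NFE2L1* and -0.19 and 0.15 for *DCUN1D1*, in HCC4006 between -0.18 and 0.13 for *NFE2L1* and -0.041 and 0.098 for *CDKN1A*, and between -0.62 and 0.083 for the difference of *NFE2L1* between the lines. With median-of-ratios scaling, *NFE2L1* in HCC4006 was at 0.0053. Leaving out a library leaves 3 and removing the minimum adds genes to the adjustment; other causes were not tested. Deviations of libraries with the same number correlated at 0.257 in ABC1 and 0.054 in HCC4006 over 13682 genes. Each line has only 2 libraries of each number, so these values cannot decide whether the numbers mark pairs. The main fits treated all libraries as unpaired. With the block, *NFE2L2*, *CUL3*, *MAFG* and *MAFF* gained a call in ABC1 (adjusted p = 0.00401, 0.0232, 0.00214 and 0.0117 by limma), and with vehicle *NFE2L2* and *MAFG* were called higher and *NFE2L1* lower in HCC4006 (0.00601, 0.0132 and 0.0154). With 1 library left in a group, it was assumed to vary like the others. With 2 libraries per group and FPKM values without depth, a change that was not called is not shown to be absent.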
